A study of Mus musculus with 20 samples.

Results

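The 9 genes described here encode 5 signal transducers and activators of transcription (Stat3, Stat4, Stat5a, Stat5b and Stat6) and 4 suppressors of cytokine signalling (Socs1, Socs2, Socs3 and Cish). They were taken by gene name from a table of 22048 protein-coding genes, and all 9 were among the 13072 genes that passed the filter on low counts. STAT proteins wait in the cytoplasm, are phosphorylated by JAK kinases at an activated cytokine receptor, and then pair up and act as transcription factors in the nucleus. SOCS proteins and CISH are feedback inhibitors: STATs switch on their genes, and the proteins then bind the receptors or the kinases and dampen the signal. In CD4+ T cells the response to IL-12 runs mainly through STAT4, the response to IL-4 through STAT6, that to IL-2 through STAT5A and STAT5B, and that to IL-6 through STAT3.

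The mouse CD4+ T cells sequenced here came from spleen and from peripheral lymph nodes. WT mice were CD4Cre+ and KO mice were CD4Cre+DOT1L FL/FL, so the Cre recombinase was present in every group. Cre driven by CD4 acts in T cells from a thymic stage that also gives rise to CD8 T cells, while other cell types keep their Dot1l alleles. DOT1L is the methyltransferase of lysine 79 of histone H3. Naive libraries held the starting population of WT or KO mice. Th1 and Th2 libraries came from 4-day cultures of these populations on plate-bound antibodies to CD3 and CD28, at 1 µg/ml each, with IL-2 at 10 ng/ml, and viable CD4+ cells were sorted at the end. Th1 medium also held 10 ng/ml IL-12 and 10 µg/ml anti-IL-4, and Th2 medium 10 ng/ml IL-4 and 10 µg/ml anti-IFN-g. WT cells were in addition polarised with 1 µM SGC0946, a DOT1L inhibitor, or with its control compound SGC0649 at the same dose. There were 10 groups of 2 libraries, 20 in all. The labels give no age or sex and do not say whether the libraries of a group came from separate animals, so p-values measure the spread between these libraries, which may be technical.

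Each library held between 9704500 and 13025588 protein-coding counts. Levels are given as CPM, the counts of a gene over the library's total after TMM scaling, and per kilobase of exon (RPKM) where genes are compared with each other. A gene was called higher or lower at a Benjamini-Hochberg adjusted p under 0.05 in edgeR's quasi-likelihood test over all 13072 genes. The fit was repeated with another scaling (RLE), with no filter, in DESeq2, on the libraries of a contrast alone, with the replicate number as a block, and with each library left out, and a number in parentheses after such an alternative is its adjusted p. Dot1l itself stood at 163 and 171 CPM in WT naive libraries and at 146 and 166 CPM in KO naive libraries. In KO cultures it was lower, by 0.39 ± 0.11 (log2 fold change ± SE, adjusted p = 0.00841) in Th1 and by 0.60 ± 0.11 (adjusted p = 0.000269) in Th2. The count spans the whole gene and does not isolate the floxed part, so it does not check the deletion. The 7 T cell markers (Cd3d, Cd3e, Cd3g, Cd4, Thy1, Cd5 and Cd2) were present in every library. In KO, 1 was called higher and 3 lower in naive, 1 and 5 in Th1, and 4 and 3 in Th2 libraries. Of all genes, 28.4%, 50.6% and 53.4% were called in these comparisons. Cd4 was at 403 CPM in KO against 985.5 in WT naive libraries, 205 against 1028 in Th1 and 166 against 564 in Th2. Cd5 was at 34.9 against 472 CPM in Th1 and 15.4 against 298 in Th2. Thy1 was higher in KO, at 1714 against 982 CPM in Th1 and 1754 against 474 in Th2.

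Markers of naive T cells, of Th1 and Th2 cells and of other cells moved with the genotype. Of 3 Th1 markers, 1 was higher and 2 lower in KO Th1 cultures, and 2 were higher and 1 lower in KO Th2. Of 3 Th2 markers, 2 were lower in KO Th1 and 3 in KO Th2 cultures. In Th2 the sum of these 3 spanned 758 to 788 CPM in WT and 232 to 340 CPM in KO libraries. Of 5 naive T cell markers, 4 were lower in KO naive, 5 in KO Th1 and 4 in KO Th2 libraries, and in Th1 their sum spanned 3339 to 3391 CPM in WT and 532 to 548 in KO libraries. Summed mast cell and basophil markers spanned 154 to 203 CPM in WT Th1 libraries and 1075 to 2464 CPM in KO Th1 libraries, with all 11 of 11 called higher. Summed myeloid and dendritic cell markers spanned 312 to 424 CPM in WT naive and 525 to 1059 CPM in KO naive libraries, with 9 of 11 called higher. In KO Th1 cultures 7 of 11 were higher, the sum spanning 35.2 to 39.1 CPM in WT and 107 to 142 in KO. These markers were uneven there. Fcer1g was at 35.8 CPM in KO Th1 against 5.36 in WT Th1, and Tyrobp at 24.9 against 4.02. Lyz2 was at 0.512 against 0.505 CPM, and Csf1r at 0.159 against 0.381. Erythroid markers spanned 198 to 308 CPM in WT naive and 311 to 1270 CPM in KO naive libraries, with 5 of 7 called higher. Both CD8 T cell markers were higher in KO Th2 cultures, at 13.1 to 16.2 CPM summed in WT and 130 to 267 CPM in KO libraries. None of the mast cell and basophil or CD8 markers had a mean of 0 in any of these groups. The part of these cells in the results below was not tested, and in bulk RNA fewer cells of a type and less RNA per cell cannot be told apart.

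Activated STAT dimers can bind the palindrome TTCNNNGAA, which reads alike on both strands. Only this spacing was searched, so a window without a match may still hold a STAT site of another spacing. Promoter windows of 300 bases (250 before and 50 after each RefSeq start, GRCm38.p6) were available for 8 of the 9 genes, and the palindrome was found for Socs3 and Cish. Across all 32851 windows of that table, 2726 (8.30%) held it. The stretch around the matches is shown for each gene that held one, whatever its result in the libraries. Socs3 had 1 match, 154 to 146 bases upstream of its start (chr11:117969502-117969531, minus strand). Cish had 2, at bases 1 to 9 and 12 to 20 of its RefSeq transcript (chr9:107296654-107296683, plus strand). The lines run 5′ to 3′ and capitals mark the matches.
Socs3: agaaaccagccTTCTTAGAAgggagggggg
Cish: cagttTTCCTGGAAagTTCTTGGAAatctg
Both RefSeq starts lie downstream of the Ensembl gene starts used for counting (Socs3 spans 117966079-117970047 and Cish 107296026-107302784), so both stretches lie inside the counted genes. A match describes these letters only; binding was not measured.

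The genes differed widely in level. Per kilobase of exon, Socs3 was the most abundant of the 9 in WT naive cells (75.2 RPKM), followed closely by Stat6 (74.6 RPKM) and then Stat5b (59.0 RPKM). Socs2 was the least abundant at 1.39 RPKM. In WT Th2 cultures Socs3 (165 RPKM), Stat3 (149.9 RPKM) and Socs1 (130.2 RPKM) led, and Stat4 was lowest at 9.14 RPKM. Among the 5 STAT genes, Stat6 held 36.3% of the summed RPKM in WT naive cells, and Stat3 held 35.2% in WT Th2 cultures. Stat5a and Stat5b lie next to each other on chromosome 11 (GRCm38, 100859351-100885169 plus and 100780731-100850724 minus) with 8626 bases between them, and Stat3 (100885098-100939540 minus) overlaps the end of Stat5a by 72 bases on the other strand. Counting used the strand, so reads of that overlap can be assigned. The paralogs share sequence: 608 stretches of 50 bases occur in transcripts of both, 8.21% of those of Stat5a and 10.98% of those of Stat5b. Reads that map equally to both were not counted, so the levels of this pair are uncertain to that extent.

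**Figure D1:**
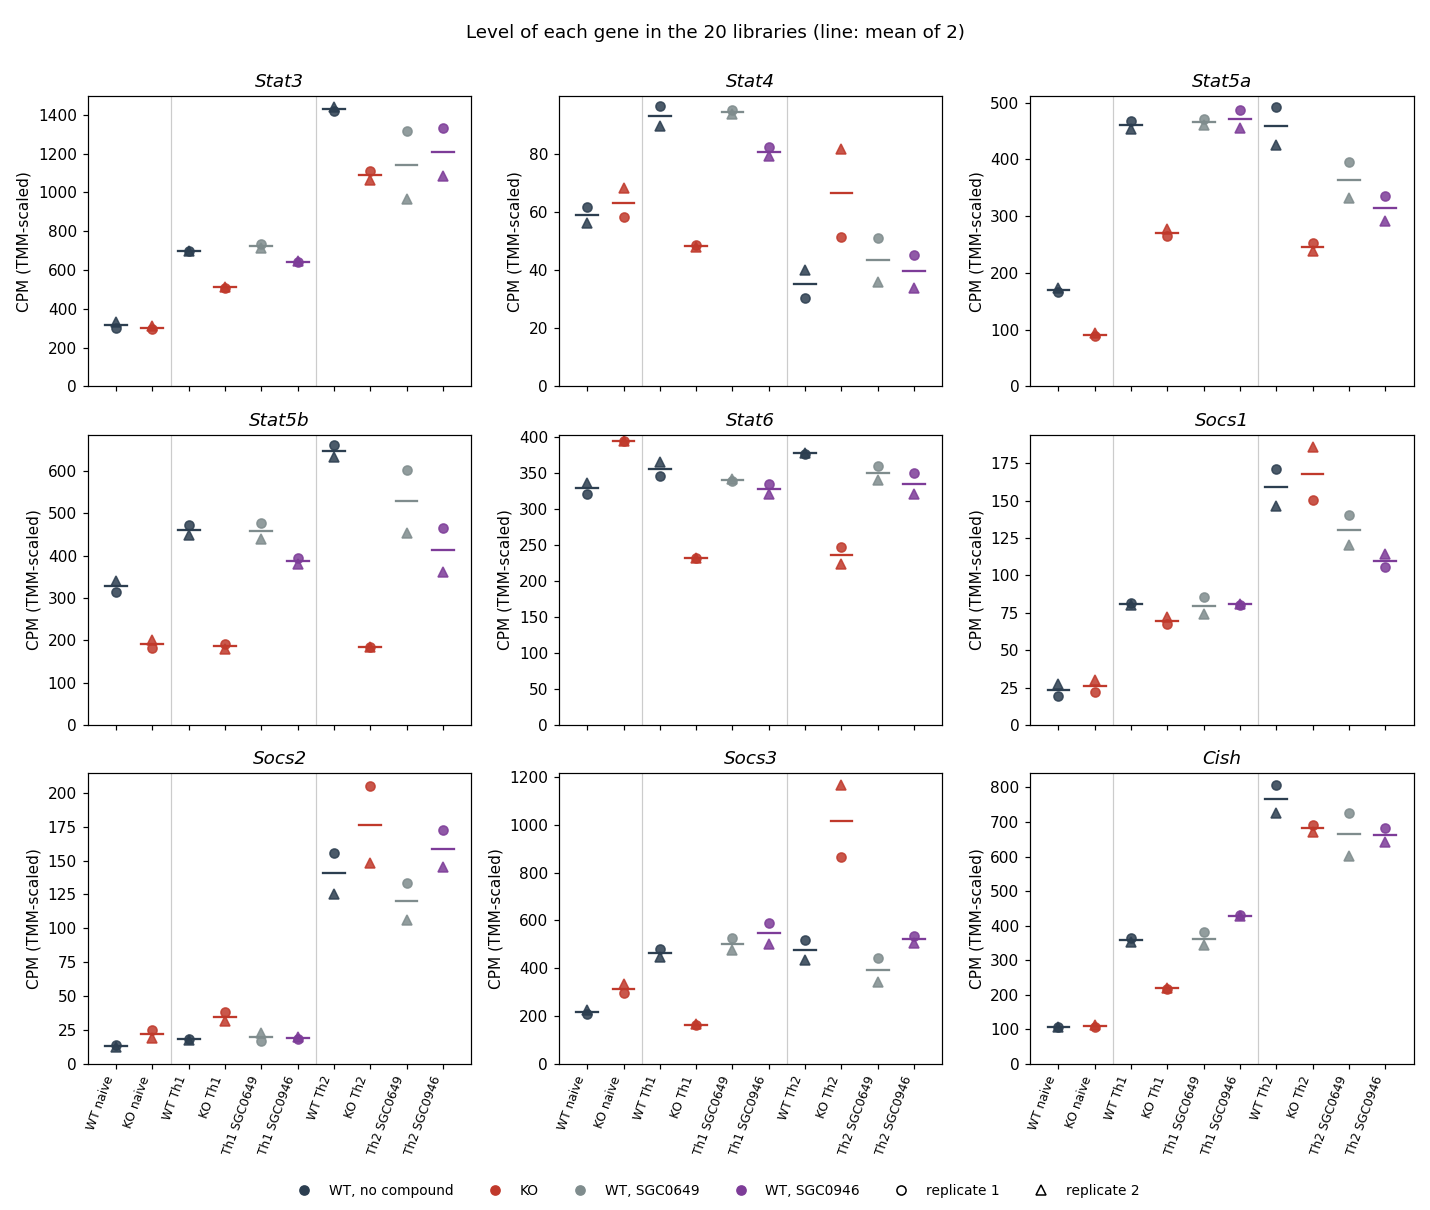
Level of each of the 9 genes in the 20 libraries, in TMM-scaled CPM on a linear axis from 0 (circle, replicate 1; triangle, replicate 2; line, mean of the 2). Socs2 was high in all Th2 groups, Stat4 in WT Th1 groups, and Stat5b was between 181 and 200.5 in the 6 KO libraries.

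Polarisation of WT cells raised most of the 9 genes. From naive to Th1, 7 were called higher and none lower. Of all 13072 genes tested, 4480 were higher and 4311 lower (67.3% called). From naive to Th2, 8 were higher and 1 lower, against 4829 and 4573 of all genes (71.9% called). The median log2 change of the 9 was 1.09 for Th1 and 1.44 for Th2, against 0.00 and 0.03 over all genes.

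The 2 largest rises in Th1 and the 3 largest in Th2 were among the inhibitor genes. Cish, which binds receptors that recruit STAT5, stood at 105 and 107 CPM in WT naive, 363 and 352 in WT Th1 and 806 and 726 in WT Th2 libraries. The 3 groups did not overlap, and the rises were 1.75 ± 0.09 (adjusted p = 6.48e-11) and 2.85 ± 0.10 (adjusted p = 1.49e-13). Socs1, which inhibits JAK kinases directly, stood at 19.3 and 27.1 CPM in naive, 81.3 and 80.2 in Th1 and 171 and 147 in Th2 libraries. It rose by 1.79 ± 0.16 and 2.77 ± 0.16. Socs2, best known as a brake on growth hormone signalling, stood at 14.1 and 12.3 CPM in naive, 18.3 and 17.7 in Th1 and 156 and 125.5 in Th2 libraries. Both WT Th2 libraries were above the naive and Th1 libraries, with a rise of 3.41 ± 0.20 over naive (adjusted p = 4.72e-10). In Th1 the rise was 0.45 ± 0.22 (adjusted p = 0.0806, or 0.0284 with the libraries paired by number). Deviations of same-numbered WT naive and WT Th1 libraries correlated at only 0.079, so that pairing is weakly based. Socs3, which acts on the receptor chain shared by IL-6 family cytokines, rose in both cultures, by 1.09 ± 0.14 and 1.13 ± 0.14.

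Among the STAT genes, Stat3 rose from 302 and 330.2 CPM in naive libraries to 696 and 697 in Th1 and 1417 and 1439 in Th2. Its libraries formed 3 separate ranges, the Th2 rise being 2.18 ± 0.12 (adjusted p = 7.26e-11). Stat5a rose by 1.44 ± 0.10 in both cultures, and Stat5b by 0.49 ± 0.12 and 0.98 ± 0.12. Stat4 moved in opposite directions, from 61.8 and 56.2 CPM in naive to 96.6 and 89.7 in Th1 (0.66 ± 0.20, adjusted p = 0.00827) and 30.6 and 40.2 in Th2 (-0.74 ± 0.21, adjusted p = 0.00493). The Th1 rise was not called without WT naive replicate 2 (adjusted p = 0.0594), nor the Th2 fall without WT Th2 replicate 1 (adjusted p = 0.0516). Stat6, the IL-4 transducer, changed little: 0.11 ± 0.07 in Th1 (adjusted p = 0.189) and 0.20 ± 0.07 in Th2. The Th2 value (adjusted p = 0.0249) lost its call without WT naive replicate 1 (0.162), WT Th2 replicate 1 (0.0939) or replicate 2 (0.085), and with no filter on low counts (0.0634).

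Compared directly, 5 of the 9 genes were lower and 1 higher in WT Th1 than in WT Th2 cultures. Of all genes, 3571 were lower and 3402 higher (53.3% called). Stat4 was 2.64-fold higher in Th1 (1.40 ± 0.20, adjusted p = 4.05e-05). Socs2 was 7.80-fold lower (adjusted p = 6.12e-09), Cish 2.14-fold, Stat3 2.05-fold, Socs1 1.97-fold and Stat5b 1.41-fold lower. Stat5a, Stat6 and Socs3 were not called and differed by 0.01 ± 0.10, -0.08 ± 0.07 and -0.05 ± 0.14. Both Stat5a and Socs3 overlapped between the conditions.

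KO and WT libraries were compared in naive cells and in both cultures. In naive cells 3 of the 9 genes were higher and 2 lower in KO (28.4% of all genes called, 2092 higher and 1616 lower). In Th1 cultures 1 was higher and 7 lower (50.6% of all genes called, 25.8% lower), and in Th2 cultures 2 were higher and 4 lower (53.4% of all genes called, 26.5% higher and 26.9% lower). The median log2 difference of the 9 was 0.10 in naive cells, -0.71 in Th1 and -0.17 in Th2, against 0.01, 0.01 and -0.01 over all genes. All 8 calls in Th1 and all 6 in Th2 held under each of the 9 alternatives computed for them, which include leaving out each of the 4 libraries.

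The STAT5 pair, the transducers of IL-2, was lower in KO in all 3 states. Stat5b stood at 315 and 339 CPM in WT naive and 182 and 200.5 in KO naive libraries, at 471 and 449 against 190.1 and 181 in Th1, and at 661 and 633 against 183 and 184 in Th2. WT and KO did not overlap in any state, and the KO libraries stayed within a narrow range while the WT libraries climbed. The differences were -0.77 ± 0.12 in naive cells (adjusted p = 0.000265), -1.31 ± 0.12 in Th1 (adjusted p = 2.97e-07) and -1.82 ± 0.13 in Th2 (adjusted p = 4.28e-09), 1.71-fold, 2.48-fold and 3.53-fold lower. Stat5a stood at 166 and 173 CPM in WT naive and 88.9 and 93.4 in KO naive, 468 and 454 against 264 and 277 in Th1, and 491 and 426 against 252 and 238 in Th2. Its groups were likewise separate in each state. The difference was about the same size in all 3, at -0.90 ± 0.10, -0.77 ± 0.10 and -0.90 ± 0.10 (adjusted p = 1.03e-05, 6.8e-06 and 7.72e-07).

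Stat6 was higher in KO naive libraries (394 and 393 CPM against 321 and 336 in WT; 0.26 ± 0.07, adjusted p = 0.0153) and lower in KO cultures. In Th1 it stood at 231.7 CPM in both KO libraries against 346 and 365 in WT, and in Th2 at 247 and 224 against 376 and 378. The cultured differences were -0.62 ± 0.07 (adjusted p = 4.51e-06) and -0.68 ± 0.08 (adjusted p = 1.05e-06). The naive rise was small, and its adjusted p was 0.117 when WT naive replicate 1 was left out, and 0.0822 or 0.0516 when KO naive replicate 1 or 2 was. Stat3 was lower by 0.45 ± 0.12 in KO Th1 cultures (adjusted p = 0.00456) and by 0.39 ± 0.12 in KO Th2 cultures (adjusted p = 0.00901). In naive cells its ranges overlapped, at 296 to 311 CPM in KO and 302 to 330.2 in WT.

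Stat4, the IL-12 transducer, moved in opposite directions in the cultures. KO Th1 libraries stood at 48.6 and 47.9 CPM against 96.6 and 89.7 in WT, and KO Th2 libraries at 51.5 and 81.9 against 30.6 and 40.2. The groups were separate in both, although the KO Th2 libraries lay far apart from each other. Stat4 was 1.93-fold lower in KO Th1 (-0.95 ± 0.20, adjusted p = 0.00111) and 1.88-fold higher in KO Th2 (0.91 ± 0.21, adjusted p = 0.00177). In naive cells the difference was 0.10 ± 0.20 with overlapping ranges.

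Among the inhibitor genes, Socs3 showed the same reversal at higher levels. KO Th1 libraries stood at 161 and 165 CPM against 479 and 446 in WT, and KO Th2 libraries at 864 and 1166 against 519 and 435. The KO Th1 libraries were the lowest of all 20 and the KO Th2 libraries the highest of all 20. Socs3 was 2.83-fold lower in KO Th1 (-1.50 ± 0.15, adjusted p = 4.8e-07) and 2.13-fold higher in KO Th2 (1.09 ± 0.14, adjusted p = 7.67e-06). In naive cells it was higher in KO, at 297 and 332 CPM against 209 and 226 (0.53 ± 0.14, adjusted p = 0.0117). Leaving out WT naive replicate 1 ended the naive call (adjusted p = 0.0783), as did leaving out the KO naive replicate 2 (0.058), and the myeloid and erythroid markers given above moved the same way in these libraries.

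Socs2 was the only one of the 9 genes called higher in KO Th1 cultures, at 37.8 and 31.7 CPM against 18.3 and 17.7 in WT (0.95 ± 0.20, adjusted p = 0.000961). These are the libraries in which all mast cell and basophil markers were higher. In KO naive libraries it stood at 24.6 and 19.2 CPM against 14.1 and 12.3 (0.73 ± 0.22, adjusted p = 0.0204), without overlap. This call ended when WT naive replicate 1 (adjusted p = 0.0608) or 2 (0.141), or the KO naive replicate 1 (0.196), was left out. In Th2 cultures the groups overlapped, at 205 and 148 CPM in KO against 156 and 125.5 in WT, and the difference was 0.33 ± 0.17 (adjusted p = 0.113). It was called with libraries paired by number in a replicate block (adjusted p = 0.0364) and without KO Th2 replicate 2 (adjusted p = 0.0196).

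Cish was lower in KO Th1 cultures, at 217 and 218 CPM against 363 and 352 (-0.71 ± 0.09, adjusted p = 6.69e-06). In Th2 cultures it stood at 692 and 671 CPM in KO and 806 and 726 in WT, a difference of -0.17 ± 0.09 that was not called (adjusted p = 0.121). In naive cells Cish differed by 0.05 ± 0.09. Socs1 was called in none of the 3 states, with differences of 0.15 ± 0.17, -0.21 ± 0.15 and 0.08 ± 0.15. The Th1 value was called when only the libraries of that contrast were fitted (adjusted p = 0.0228).

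**Figure D2:**
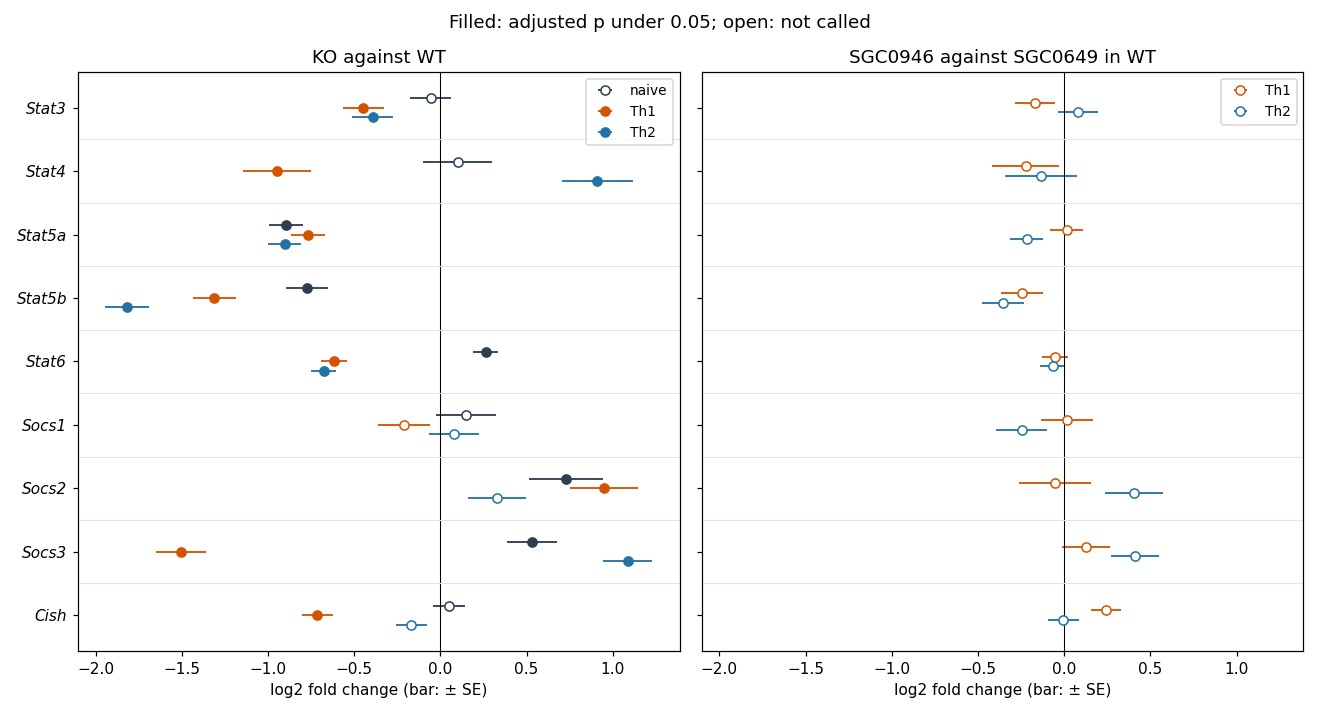
Log2 fold change (x axis) of each gene in KO against WT (left: naive, Th1, Th2) and in SGC0946 against SGC0649 in WT cultures (right: Th1, Th2). Bars are ± SE and filled points have an adjusted p under 0.05. Stat4 and Socs3 lie on opposite sides of 0 in the Th1 and Th2 cultures of the left panel, and no point of the right panel is filled.

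The difference between the KO effects in the 2 cultures was tested as an interaction. It was called for 4 of the 9 genes, near the share of all genes (46.2% called). The KO effect in Th1 minus that in Th2 was -2.59 ± 0.20 for Socs3 (adjusted p = 1.14e-07), -1.86 ± 0.29 for Stat4 (adjusted p = 0.000108) and -0.55 ± 0.13 for Cish (adjusted p = 0.00207). For Socs3 and Stat4 the call held in all 13 alternatives. For Stat5b it was 0.51 ± 0.17 (adjusted p = 0.0242), the fall being larger in Th2. That call was lost without WT Th1 replicate 1 (0.0504), WT Th1 replicate 2 (0.087), KO Th1 replicate 1 (0.0816) or WT Th2 replicate 1 (0.0801). Socs2 gave 0.62 ± 0.26 (adjusted p = 0.0626, or 0.0159 with the replicate block and 0.0108 without KO Th2 replicate 1). Stat5a, Stat3 and Stat6 gave 0.14 ± 0.14, -0.05 ± 0.16 and 0.06 ± 0.11, none of them called.

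Set against naive cells, the KO effect was lower in Th1 for 5 genes (27.5% of all genes called, 2204 lower and 1395 higher). The shift was -2.04 ± 0.20 for Socs3 (adjusted p = 3.7e-06), -0.88 ± 0.11 for Stat6 (adjusted p = 1.79e-05) and -0.76 ± 0.13 for Cish (adjusted p = 0.000426). It was -1.05 ± 0.28 for Stat4 (adjusted p = 0.0126) and -0.54 ± 0.17 for Stat5b (adjusted p = 0.0287). The Stat5b call was lost without WT naive replicate 1 (0.0895), KO naive replicate 2 (0.0828), WT Th1 replicate 1 (0.0783) or KO Th1 replicate 2 (0.073).

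In Th2 the KO effect differed from that in naive cells for 4 genes (35.7% of all genes called). Stat5b (-1.04 ± 0.17, adjusted p = 0.000191) and Stat6 (-0.94 ± 0.11, adjusted p = 4.47e-06) shifted down. Stat4 (0.81 ± 0.29, adjusted p = 0.0393) and Socs3 (0.56 ± 0.20, adjusted p = 0.0403) shifted up. The Stat4 shift was lost without WT naive replicate 1 (0.0876) or 2 (0.0604), KO naive replicate 1 (0.128), WT Th2 replicate 1 (0.125) or KO Th2 replicate 2 (0.203), in the libraries of the contrast alone (0.0818) and with no filter (0.0839). The Socs3 shift was lost without WT naive replicate 2 (0.133), KO naive replicate 1 (0.138), WT Th2 replicate 2 (0.136) or KO Th2 replicate 2 (0.22), and in the libraries of the contrast alone (0.0533).

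Within KO cells, the step from naive to Th1 raised 5 of the 9 genes and lowered 2. Of all genes, 4729 rose and 4549 fell (71.0% called). The step to Th2 raised 6 of the 9 and lowered 1, against 4469 and 4565 of all genes (69.1% called). Both numbers called were near the share of all genes. Stat5b did not follow: its change was -0.05 ± 0.12 in KO Th1 and -0.06 ± 0.12 in KO Th2, both with overlapping ranges, where WT cells had called rises. Stat6 fell by 0.77 ± 0.07 and 0.74 ± 0.08 (adjusted p = 1.08e-07 and 1.46e-07). Socs3 fell by 0.95 ± 0.14 in KO Th1 (adjusted p = 2e-05) and rose by 1.69 ± 0.14 in KO Th2 (adjusted p = 2.37e-08). Cish rose by 0.99 ± 0.09 and 2.64 ± 0.10, Socs1 by 1.43 ± 0.16 and 2.70 ± 0.16, and Socs2 by 0.67 ± 0.19 and 3.02 ± 0.19. The Socs2 rise in Th1 was not called without KO naive replicate 2 (0.0875) or KO Th1 replicate 1 (0.0683). Stat4 was not called in either culture (-0.39 ± 0.20 and 0.07 ± 0.20), although the Th1 value was called in the libraries of that contrast alone (adjusted p = 0.00601).

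**Figure D3:**
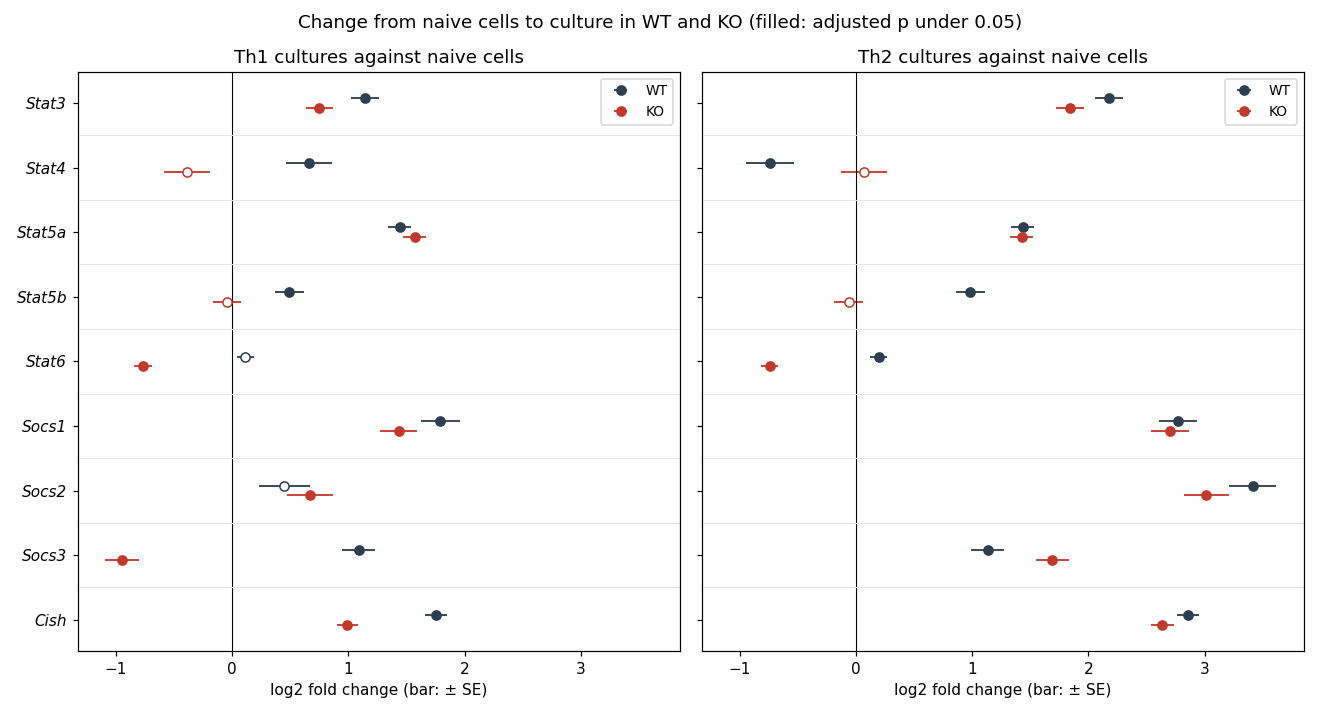
Log2 fold change (x axis) from naive cells to Th1 (left) and Th2 (right) cultures in WT and KO, with bars of ± SE and filled points at an adjusted p under 0.05. Socs3 and Stat6 lie on the negative side in KO Th1 cultures, and Stat5b lies at 0 in both KO panels while it is positive in WT.

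Between KO Th1 and KO Th2 cultures 5 genes were lower in Th1 and none higher. Of all genes, 4151 were lower and 3670 higher (59.8% called), so the number called was near that share. Socs3 was 6.22-fold lower (adjusted p = 5.56e-10), where the WT cultures differed by 1.03-fold. Socs2 was 5.08-fold, Cish 3.13-fold, Socs1 2.41-fold and Stat3 2.13-fold lower. Stat4, higher in Th1 than in Th2 among WT cultures, differed by -0.46 ± 0.20 in KO. That value was not called (adjusted p = 0.0606) but passed with RLE scaling (0.0461), in DESeq2 (0.0334) and without KO Th2 replicate 1 (0.00279).

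The WT cultures with compounds asked whether an inhibitor of the enzyme moved the same genes. SGC0946 and SGC0649 were compared at the same dose of 1 µM and the same time. None of the 9 genes was called in Th1 (0.467% of all genes called) or in Th2 (7.96% of all genes called) by edgeR. At an unadjusted p under 0.05 there was 1 in Th1 and 4 in Th2, and DESeq2 called 0 and 1. In Th1, Cish stood at 430 and 427 CPM with SGC0946 and 381 and 343 with SGC0649. These did not overlap, and the difference was 0.24 (95% interval 0.05 to 0.43, adjusted p = 0.308). Stat5b in Th1 stood at 394 and 380.5 CPM against 478 and 438, a difference of -0.24 (-0.50 to 0.01, adjusted p = 0.546).

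In Th2, Stat5b stood at 465 and 362 CPM with SGC0946 and 602 and 454 with SGC0649, with overlap. The difference was -0.35 (95% interval -0.61 to -0.10, adjusted p = 0.0868), and it was called without SGC0649 replicate 2 (0.0152) or SGC0946 replicate 1 (0.037). Socs3 stood at 537 and 505 CPM against 442 and 341, a difference of 0.41 (0.11 to 0.71, adjusted p = 0.0883). It was called by DESeq2 (0.0487) and without SGC0649 replicate 1 (0.0143). Socs2 stood at 172 and 145 CPM against 134 and 106 (0.40, 0.04 to 0.76, adjusted p = 0.166), and was called with the replicate block (0.0488), where a column of this SGC0946 group has a number that differs from its label. Stat4 differed by -0.22 (-0.64 to 0.19) in Th1 and -0.13 (-0.58 to 0.31) in Th2. The SGC0649 Th2 libraries were the least alike of all groups, with an SD of 0.342 for the log2 difference between replicates over all genes against 0.137 in WT Th1.

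The difference between the SGC0946 effects in Th1 and Th2 was called for none of the 9 genes in edgeR (0.520% of all genes called; 0 at an unadjusted p under 0.05 and 0 by DESeq2). Against cultures without compound, SGC0946 called none of the 9 genes in Th1 (2.44% of all genes called; 1 at an unadjusted p under 0.05, 0 by DESeq2). In Th2 it called 3 lower (9.39% of all genes called lower) and none higher: Stat5a by 0.55 ± 0.10 (adjusted p = 0.00118), Stat5b by 0.65 ± 0.12 (adjusted p = 0.00192) and Socs1 by 0.53 ± 0.15 (adjusted p = 0.0198). The Socs1 call was lost without WT Th2 replicate 1 (0.17), SGC0946 replicate 1 (0.102) or SGC0946 replicate 2 (0.0548). SGC0649 against no compound called 0 in Th1 (0.0153% of all genes called; 0 at an unadjusted p under 0.05, 0 by DESeq2) and 0 in Th2 (0.673% of all genes called; 4 at an unadjusted p under 0.05, 1 by DESeq2). In Th2, Stat5a differed by -0.33 ± 0.10 between SGC0649 and no compound (adjusted p = 0.0923, 0.0453 with the replicate block, 0.0301 in DESeq2). Mean Stat5b in Th2 was 647 CPM without compound, 528 with SGC0649 and 414 with SGC0946. Mean Socs1 was 159, 130 and 110 CPM in the same order. Part of the falls under SGC0946 against no compound was thus also seen with the control compound, where edgeR did not call it.

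Th1 and Th2 cultures also differed under both compounds. Under SGC0649, 3 genes were higher and 4 lower in Th1 (48.4% of all genes called, 3173 higher and 3150 lower). Under SGC0946, 2 were higher and 4 lower (50.4% of all genes called, 3266 higher and 3320 lower). Stat4 was 2.17-fold and 2.04-fold higher in Th1 (adjusted p = 0.000315 and 0.000651), and Socs2 6.09-fold and 8.35-fold lower (adjusted p = 3.33e-08 and 4.95e-09). Under SGC0649 the number called fell to 5 in some alternatives. The Socs3 call there (0.36 ± 0.14, adjusted p = 0.0479) was lost with RLE scaling (0.0648), with no filter (0.0502), in DESeq2 (0.0567), in the libraries of the contrast alone (0.113), and without Th1 SGC0649 replicate 1 (0.210) or 2 (0.0600) or Th2 SGC0649 replicate 2 (0.336). The Stat5a call was lost in the libraries of the contrast alone (0.069) and without Th2 SGC0649 replicate 2 (0.0783), the latter fit also calling Stat5b lower in Th1 (0.012). Under SGC0946 the Socs1 call (adjusted p = 0.0206) was lost without Th1 SGC0946 replicate 1 (0.0807) or 2 (0.0777) or Th2 SGC0946 replicate 2 (0.111).

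The KO effect and the SGC0946 effect were tested against each other, the former over untreated WT and the latter over SGC0649. The 2 contrasts share no libraries. In Th1 the KO effect was lower for 5 genes and higher for 1 (30.7% of all genes called, 2334 lower and 1678 higher). Socs3 differed by -1.63 ± 0.20, Stat5b by -1.07 ± 0.17 and Cish by -0.96 ± 0.13. Stat5a differed by -0.78 ± 0.14, Stat6 by -0.57 ± 0.11 and Socs2 by 1.00 ± 0.29. The Socs2 call (adjusted p = 0.0161) was lost without WT Th1 replicate 1 (0.0505) or 2 (0.0583), KO Th1 replicate 1 (0.072), SGC0649 replicate 2 (0.116) or SGC0946 replicate 1 (0.0681). The remaining 5 had adjusted p of 2.56e-05, 0.000259, 4.14e-05, 0.00048 and 0.000847. Stat4 gave -0.72 ± 0.28 and was not called (adjusted p = 0.0605), but passed in DESeq2 (0.0449) and in the libraries of the contrast alone (2.55e-05). Stat3 (-0.28 ± 0.17, adjusted p = 0.211) also passed in the latter (0.0148). The number called ran from 5 to 8 over the 13 alternatives.

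In Th2 the KO effect was lower than the SGC0946 effect for 4 genes and higher for 2. Of all genes, 2218 were lower and 1961 higher (32.0% called). Stat5b differed by -1.47 ± 0.17 (adjusted p = 9.22e-06), Stat5a by -0.69 ± 0.14 (adjusted p = 0.00108) and Stat6 by -0.61 ± 0.11 (adjusted p = 0.000328). Stat4 (1.04 ± 0.29, adjusted p = 0.0137), Socs3 (0.68 ± 0.20, adjusted p = 0.0162) and Stat3 (-0.47 ± 0.16, adjusted p = 0.0361) were also called. These 3 calls were lost in the libraries of the contrast alone (0.0709, 0.0714 and 0.153) and without KO Th2 replicate 2 (0.0606, 0.0922 and 0.083). Stat4 and Socs3 were also lost without SGC0649 replicate 1 (0.0521 and 0.0503), and Socs3 without WT Th2 replicate 2 (0.0629). Stat3 was further lost without WT Th2 replicate 1 (0.0817) or 2 (0.0926), SGC0649 replicate 2 (0.175) or SGC0946 replicate 1 (0.204). CD4-driven deletion begins in the thymus and the compounds were present in culture, so the durations of the 2 treatments differed.

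Levels of paired genes within a library show how the balance shifted. On the RPKM scale Stat5b exceeded Stat5a 2.48 ± 0.06 times in WT naive cells (mean ± SD, n = 2), 1.29 ± 0.01 times in WT Th1 and 1.82 ± 0.13 times in WT Th2. In KO the ratio was 2.70 ± 0.09 in naive cells, 0.883 ± 0.062 in Th1 and 0.965 ± 0.040 in Th2. The ratio was thus under 1 in all 4 KO culture libraries and in no WT library. In the KO Th1 libraries it was 0.926 and 0.839, and in the KO Th2 libraries 0.937 and 0.992. Reads shared by the pair were not counted, so the order is uncertain where the ratio lies close to 1. Socs3 over Socs1 went from 2.42 ± 0.10 in WT Th1 to 0.988 ± 0.032 in KO Th1, and from 1.27 ± 0.02 in WT Th2 to 2.54 ± 0.16 in KO Th2. With SGC0946 in Th2 that ratio was 2.01 ± 0.20, and with SGC0649 it was 1.26 ± 0.10. Stat6 over Stat4 was 9.54 ± 1.81 in WT Th2 and 3.31 ± 1.29 in KO Th2. These ratios combine values already compared above and carry no test.

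**Figure D4:**
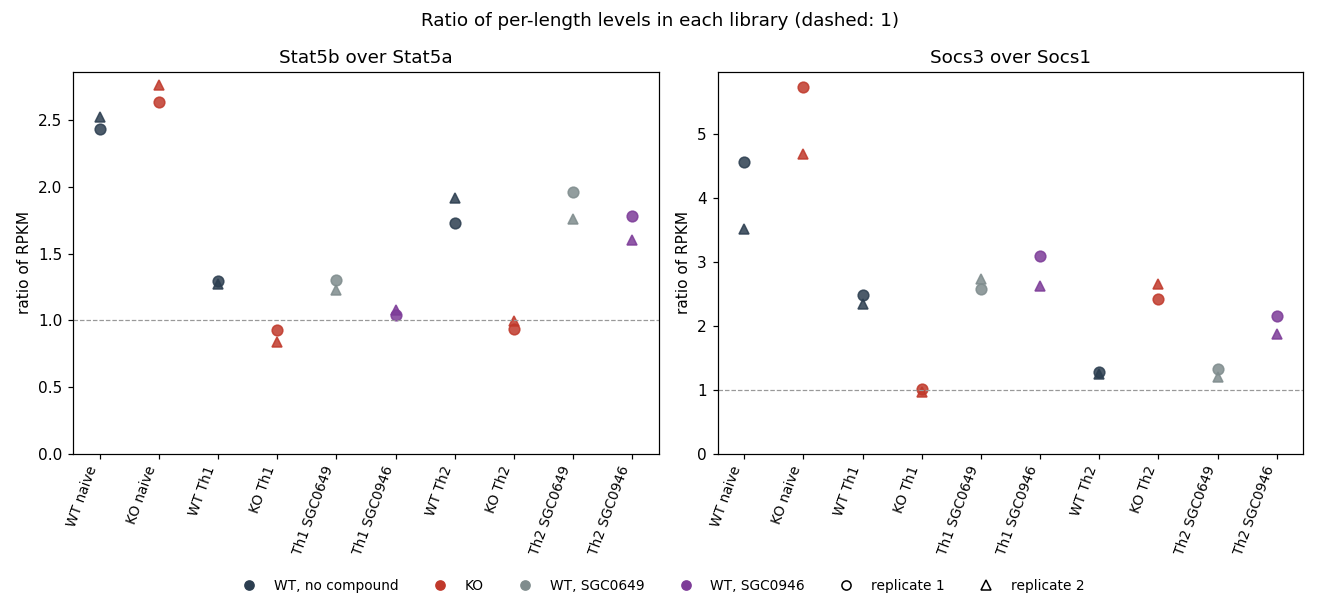
Ratio of per-length levels (RPKM, linear axis from 0) of Stat5b over Stat5a (left) and Socs3 over Socs1 (right) in each of the 20 libraries, with a dashed line at 1. Stat5b over Stat5a lies under 1 in the 4 KO culture libraries, and Socs3 over Socs1 lies near 1 in KO Th1.

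Other genes of the pathway were taken from 5 lists. Of 7 tested JAK kinases and other STAT genes, none was called in KO naive cells (28.4% of all genes called), 5 were lower in KO Th1 (25.8% of all genes called lower), and 4 were higher and 1 lower in KO Th2 (26.5% of all genes called higher and 26.9% lower). Their median log2 difference was 0.15, -0.61 and 0.25, against 0.01, 0.01 and -0.01 over all genes. Jak2, the kinase of the IL-12 receptor among others, fell from 520.4 to 248 CPM in Th1 (-1.07 ± 0.12) and from 1478 to 305 CPM in Th2 (-2.28 ± 0.13, adjusted p = 3.97e-10).

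Of 14 other negative regulators, 3 were higher and 2 lower in KO naive cells, 0 and 9 in KO Th1, and 1 and 9 in KO Th2. Those called made up 35.7%, 64.3% and 71.4% of the list, against 28.4%, 50.6% and 53.4% of all genes, so the naive share was near that of all genes. The median log2 difference was -0.02, -0.35 and -0.41. Ptpn6, which encodes the phosphatase SHP-1, was higher in KO naive cells (389 against 282 CPM, 0.46 ± 0.08) and lower in KO Th2 cultures (69.9 against 256 CPM, -1.87 ± 0.08, adjusted p = 2.19e-11). Sh2b3, which encodes the adaptor LNK, was lower in KO Th1 (19.99 against 42.5 CPM) and KO Th2 (16.97 against 52.6 CPM). With SGC0946 against SGC0649 in Th2, 3 of the 14 were lower (2.51% of all genes called lower), among them Sh2b3 (-0.59 ± 0.11, adjusted p = 0.00358) and Ptpn6 (-0.31 ± 0.08, adjusted p = 0.0205).

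Of 25 tested cytokine receptor genes, 11 were higher and 6 lower in KO naive cells, 6 and 14 in KO Th1, and 13 and 6 in KO Th2. That is 17, 20 and 19 of the 25 called, against 28.4%, 50.6% and 53.4% of all genes, with a median log2 difference of 0.33, -0.48 and 0.22. Il6ra, the IL-6 binding chain upstream of STAT3, was at 1.39 against 64.3 CPM in KO Th1 (-5.53 ± 0.20, adjusted p = 7.27e-12) and 6.23 against 98.9 CPM in KO Th2 (-3.99 ± 0.16). Il12rb2, the IL-12 receptor chain that recruits STAT4, was higher in KO naive cells (20.8 against 7.91 CPM, 1.40 ± 0.15). Csf2rb, the chain shared by IL-3, IL-5 and GM-CSF receptors and abundant in mast cells, was higher in KO Th1 (249 against 23.2 CPM, 3.42 ± 0.34).

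Of 17 tested cytokine genes, 8 were higher and 1 lower in KO naive cells, 6 and 4 in KO Th1, and 5 and 11 in KO Th2. The called share was 52.9%, 58.8% and 94.1%, against 28.4%, 50.6% and 53.4% of all genes, and in Th1 it was near that of all genes. The median log2 difference was 1.89, 1.08 and -1.57. Il6 rose in KO Th1 from 2.35 to 26.4 CPM (3.49 ± 0.45), and Il21, a STAT3-activating cytokine, fell in KO Th2 from 168 to 4.78 CPM (-5.10 ± 0.25). Of 25 known STAT target genes of T cells, 11 were higher and 5 lower in KO naive cells, 4 and 14 in KO Th1, and 15 and 7 in KO Th2. These were 64.0%, 72.0% and 88.0% of the list, against the same shares of all genes, and the median log2 difference was 0.24, -0.33 and 0.63. Bcl2, a survival gene, fell in KO Th1 (97.1 against 312 CPM, -1.68 ± 0.10), as did Pim2, a kinase gene induced by cytokines (66.8 against 182 CPM, -1.45 ± 0.10). Osm rose in KO Th2 (344 against 86.0 CPM, adjusted p = 5.8e-09). With SGC0946 against SGC0649 in Th1 no gene of the 5 lists was called by edgeR (0.467% of all genes called). In Th2, where 7.96% of all genes were called and 2.51% called lower, 5 of the 17 cytokine genes were lower and none higher. Of the 25 receptor genes 1 was higher (Il2rb, 0.31 ± 0.08), and of the 25 targets 1 was higher and 2 lower. The receptor and target counts were near the share of all genes.

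The patterns of the 9 genes over the 10 groups resembled each other unevenly. Pearson's r of the group means of log2 CPM was 0.98 for Stat3 with Cish, 0.97 for Socs1 with Cish and 0.96 for Stat3 with Socs1, all highest in Th2 and lowest in naive cells. Stat5a with Stat5b gave 0.71, and Stat4 with Socs2 gave -0.70, the lowest of the 36 pairs. These are descriptions over 10 points that share libraries, scaling and the 3 culture states. Among 9426 other genes, the closest pattern was that of Gmppa for Stat3 (r = 0.996), Slc11a2 for Stat4 (0.980), Treml2 for Stat5a (0.977), Msi2 for Stat5b (0.966) and Smad3 for Stat6 (0.960). For the inhibitors it was Obfc1 for Socs1 (0.993), Ppp2r3a for Socs2 (0.993), Serinc5 for Socs3 (0.986) and Muc2 for Cish (0.995).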

How the data were processed

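The deposited table held counts of reads per gene in 20 libraries of total RNA. Per the file headers, featureCounts 1.5.3 assigned reads to genes of GRCm38 (Ensembl release 84), using the strand (setting 2), and the deposited exon length in bases beside the counts served here for RPKM. The submitters' processing notes also name edgeR and limma. Which aligner was used is not given in the sources used here. From 27.4% to 34.9% of alignments per library were multimapping and not counted.

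Genes were filtered with filterByExpr (at least 10 counts in enough libraries, 15 in total) and scaled by TMM. A robust quasi-likelihood F test in edgeR 4.0.16 (R 4.3.3) used all 20 libraries and a mean for each group, which left 10 residual degrees of freedom, with a common coefficient of biological variation of 0.0963. P-values were adjusted over all 13072 genes. SE is the log2 fold change over the root of F. The procedure was also run on simulated counts in which a small share of genes was changed in KO Th1 libraries only. That run checks the code and not how well changes are found in these data. The 9 genes, the lists and the tests were chosen with earlier results of these data known. All 9 genes were named, with up to 3 called genes per list and comparison and the most similar gene over the groups. A gene that this rule named is not reported here.

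Alternatives were RLE scaling, no filter, DESeq2 1.42.0, the libraries of a contrast alone, each library left out, and the replicate number as a block. Deviations of same-numbered libraries correlated at 0.192 to 0.700 over 15 pairs of WT cultures and 0.133 to 0.283 over 3 pairs of WT with KO of a condition, so the number was taken to pair them, from the data and not the labels. In each SGC0946 group both count columns carry number 1 while the labels give 1 and 2. The columns were matched by their library index and numbered as in the labels, so the block there rests on that choice. Over all 45 pairs of groups the correlation was -0.110 to 0.700. WT naive libraries gave 0.079 with WT Th1 and -0.013 with WT Th2, and KO naive libraries 0.245 with KO Th1 and -0.021 with KO Th2. KO Th1 libraries gave 0.019 with KO Th2 and 0.047 with WT Th2, and WT Th1 libraries gave 0.065 with KO Th2. The number thus paired naive with cultured libraries, and these KO cultures across polarisations, weakly or not at all. The block assumes that it did pair them. The main test used no pairing.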

Additional observations from a re-analysis of the deposited data

Results flagged for a closer look

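Each value here is a difference between the KO effects (log2) of 2 states, past an adjusted p of 0.05 in the interaction test of edgeR. With 2 libraries per group no group was large enough to look for stray libraries. Between Th1 and Th2 cultures the difference was -1.86 for Stat4, 0.51 for Stat5b, -2.59 for Socs3 and -0.55 for Cish. Between Th1 cultures and naive cells it was -1.05 for Stat4, -0.54 for Stat5b, -0.88 for Stat6, -2.04 for Socs3 and -0.76 for Cish. Between Th2 cultures and naive cells it was 0.81 for Stat4, -1.04 for Stat5b, -0.94 for Stat6 and 0.56 for Socs3. Of all genes, 46.2%, 27.5% and 35.7% were called in these 3 tests. The number called between Th1 and Th2 was near that share. In Th1, KO libraries also carried the higher mast cell and basophil markers, in Th2 the higher CD8 markers and in naive cells the higher myeloid and erythroid markers, and their part in these differences was not tested.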

How the results depend on the processing

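The same kinds of alternatives were computed for every comparison. Over the 23 comparisons, called genes among the 9 kept direction and call in 447 of 504 fits with 1 library left out and in 493 of 505 fits under the other alternatives, and lost the call in 57 and 12. No called value changed direction. Depth allowed every one of the 9 genes to be tested, and with 2 libraries per group the spread between libraries limits the small differences.

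Counts over all genes moved most for the compounds. SGC0946 against SGC0649 in Th1 called 100 genes with no filter, 136 with the replicate block, 137 in DESeq2 and 561 in the libraries of the contrast alone, and 3 to 6 with 1 library left out. In Th2 it called 0 in the libraries of the contrast alone and 330 to 1966 with 1 library left out. SGC0649 against no compound in Th1 called 4 with no filter, 19 in DESeq2, 190 in the libraries of the contrast alone and 1 to 2 with 1 left out. In Th2 it called 207, 543 and 0 under these alternatives, 523 with the replicate block, and 2 to 2402 with 1 left out. SGC0946 against no compound in Th1 called 591 with the block, 2390 in the libraries of the contrast alone and 10 to 102 with 1 left out, and in Th2 906 to 1537 with 1 left out. The difference of SGC0946 effects between Th1 and Th2 was called for 141 in DESeq2, 12 in the libraries of the contrast alone and 10 to 256 with 1 left out. The KO effect minus the SGC0946 effect was called for 2627 to 3472 genes in Th1 with 1 left out and for 2636 in Th2 in the libraries of the contrast alone. KO against WT in naive cells called 1571 to 3293 genes with 1 left out. The cause of these shifts was not tested beyond the fewer libraries that some of the fits hold.

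Of the 9 genes, KO against WT in naive cells called 2 to 4 with 1 library left out, lowest without WT naive replicate 1. SGC0946 against SGC0649 in Th2 called 1 with the replicate block, 1 in DESeq2 and 0 to 1 with 1 left out. SGC0649 against no compound in Th2 called 1 with the replicate block, 1 in DESeq2 and 0 to 5 with 1 left out, the 5 without SGC0649 replicate 1. SGC0946 against no compound in Th1 called 4 in the libraries of the contrast alone. The KO effect in Th2 minus that in naive cells was called for 2 in the libraries of the contrast alone and 2 to 4 with 1 left out. The KO effect minus the SGC0946 effect in Th2 was called for 3 in the libraries of the contrast alone and 3 to 6 with 1 left out. The block of paired libraries changed no call of the 9 genes other than those given above.

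Direction turned only for differences near 0 that were not called (log2). Cish in SGC0946 against SGC0649 in Th2 became 0.0039 with RLE scaling, 0.0038 in DESeq2 and -0.13 to 0.12 with 1 library left out. Stat5a in WT Th1 against Th2 became -0.022 with RLE scaling and in DESeq2, -0.0070 in the libraries of the contrast alone and -0.091 to 0.13 with 1 left out, and Socs3 there ran from -0.17 to 0.10. With 1 left out, KO against WT in naive cells ran from -0.12 to 0.014 for Stat3, -0.015 to 0.21 for Stat4 and -0.087 to 0.42 for Socs1, and in Th2 from -0.083 to 0.22 for Socs1. From KO naive cells, Stat5b ran from -0.11 to 0.013 in Th1 and -0.14 to 0.018 in Th2, and Stat4 from -0.31 to 0.38 in Th2. SGC0946 against SGC0649 in Th1 ran from -0.038 to 0.074 for Stat5a, -0.085 to 0.13 for Socs1 and -0.24 to 0.18 for Socs2, and in Th2 from -0.12 to 0.30 for Stat3 and -0.36 to 0.12 for Stat4.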
